A study of Mus musculus with 39 samples.

Results

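The baseline examined here is the duodenum of mice that drank plain water and received saline into the brain. It comprised the 14 libraries labelled Saline-water, of 39 in the series, chosen by title and by the prefix of the library name. Saline-water 1 to 8 carry the prefix M_ and are called set M (8 libraries), and Saline-water 9 to 14 carry MT_ and are called set MT (6 libraries). All came from male, wild-type C57BL/6 mice aged 8 weeks in which a cannula had been placed in a lateral ventricle 3 days earlier. The mice drank water without antibiotic for 48 h, were deprived of food for 2 h, and were killed 2 h after saline was given through the cannula. Every library therefore shares surgery, fasting and injection, and none represents an untouched mouse. The labels give 1 protocol for both sets and do not say what the prefixes stand for, so animal cohort, dissection, library preparation and sequencing cannot be told apart as sources of a difference between the sets. Nor do they say whether libraries come from different animals, so the p-values measure only the spread between these samples, which may be technical. A repeat of the set comparison used the 13 Leptin-water libraries (7 of set M, 6 of set MT), from mice given leptin, a hormone of fat cells, in place of saline. The other 12 libraries, from mice that also drank ampicillin and neomycin, are all of set MT and enter only the check of liver transcripts.

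The duodenum is the first segment of the small intestine. Its villi are covered by absorptive enterocytes, its crypts hold stem cells and Paneth cells, and its upper part carries Brunner glands, which secrete alkaline mucus. It lies between the stomach, the pancreas and the liver, and the wall beneath the epithelium holds smooth muscle, enteric neurons and connective tissue. The labels name all cells of the duodenum as the source, so each library mixes these tissues, and a lower level of a cell type's transcripts can mean fewer such cells or less RNA per cell.

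Total counts per library were 46320000 to 64590000 (median 56600000) in set M and 35410000 to 48920000 (median 41570000) in set MT. The residual ribosomal RNA gene Rn45s took 5.92% to 12.99% of the counts in set M and 4.5% to 11.25% in set MT. Markers of duodenum were present, as the label of the tissue states. Pdx1, a transcription factor of duodenum and pancreas, was at 118 to 146 CPM (counts scaled to library size with TMM factors) in set M and 113 to 201 CPM in set MT, and Gata4, a factor of the proximal intestine, at 244 to 302 and 226 to 318 CPM. The ileal bile acid carrier Slc10a2 was at 0.639 to 2.13 CPM over both sets, and Atp4a, the proton pump of acid-secreting stomach cells, at 0.19 to 0.77 CPM. Muc5ac and Gkn1, genes of the stomach surface, were detected in every library. Liver transcripts such as Alb, at 69.6 to 634 CPM, were present in every set M library. The pancreatic protease gene Ctrb1 was at most 0.58 CPM in 10 libraries and reached 26.2 CPM in Saline-water 14, 13.5 in Saline-water 9, 8.4 in Saline-water 4 and 7.41 in Saline-water 11.

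Per kilobase of exon, the highest-ranking transcripts of the baseline were those of enterocytes and mucus-secreting glands, beside abundant structured RNAs. Akp3, an intestinal alkaline phosphatase, averaged 6709 CPM per kilobase in set M and 4581 in set MT, and Tff2, a trefoil peptide of Brunner glands, 5359 and 3909. Prap1, a secreted protein of the proximal gut, averaged 3899 and 3486, S100g, the calcium-binding calbindin of enterocytes, 2490 and 2027, and Apoa4, an apolipoprotein of chylomicrons, 2346 and 2201, all in CPM per kilobase. Muc6, the mucin of Brunner and pyloric glands, averaged 2206 and 1092 CPM per kilobase. The RNA subunits of RNase P and RNase MRP, Rpph1 and Rmrp, ranked among these at 12550 and 7853, and at 3617 and 2130 CPM per kilobase. For absorptive function as a whole the sets overlapped: the mean log2 CPM of the 21 genes of the absorptive enterocyte list lay between 9.51 and 9.90 in set M and between 9.43 and 9.88 in set MT, and none of its 21 members passed the test of the set difference described next (4 had an unadjusted p under 0.05, and DESeq2 called 1).

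Across all genes, the same treatment gave 2 distinguishable baselines. Of 16332 genes tested with edgeR's quasi-likelihood F test (threshold, Benjamini-Hochberg adjusted p of 0.05), 1997 (12.2%) differed between the sets (4680, or 28.7%, had an unadjusted p under 0.05), with 1012 (6.2%) higher and 985 (6.03%) lower in set MT. Most differences were small: 31 genes were higher and 177 lower by at least 2-fold. For 288 genes (1.76%) every set MT library lay above every set M library, and for 341 (2.09%) every one lay below. The division between higher and lower depended on scaling, since 50.7% of the called genes were higher with TMM factors, 62.4% with upper-quartile factors and 69.5% with library totals alone. The count was 1394 without Saline-water 7, the lowest of the 14 fits that left out 1 library, and 2193 without Saline-water 13, the highest. On the first principal component, which held 33% of the variance, set membership accounted for 79.8%.

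The Leptin-water libraries, none of which entered that fit, gave 2741 called genes of 16331 (16.8%), 1402 (8.58%) higher and 1339 (8.2%) lower in set MT. Of the genes tested in both, 967 were called in the same direction in both fits, which is 48.4% of the Saline-water calls and 35.3% of the Leptin-water calls, and 9 were called in opposite directions. The direct test of whether the set difference itself differed between saline and leptin called 7 of 16356 genes (0.0428%), 6 (0.0367%) with a positive and 1 (0.00611%) with a negative value. Their lowest adjusted p was 0.0378, and 1612 genes (9.86%) had an unadjusted p under 0.05. Leaving out 1 of the 27 libraries at a time gave 0 to 36 such genes: 0 without any 1 of Saline-water 1, 2, 3, 4, 6, 9, 10, 12 and 14 and Leptin-water 1, 3, 5, 7, 8, 9, 10 and 13, 1 without Saline-water 11, 11 without Leptin-water 11, 31 without Saline-water 5 and 36 without Leptin-water 6.

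The largest differences belonged to liver. A list of 50 tested genes of hepatocyte secretion and metabolism was assembled with these results known, and members at 0 in set MT could enter the test only through set M, so its counts describe the list and support nothing. Of its members, 47 were lower and none higher in set MT in Saline-water, and 46 were lower and 1 higher in Leptin-water, with 6.03% and 8.2% of all genes lower. For 43 members every set MT library lay below every set M library in Saline-water, beside 2.09% of all genes. Their median log2 fold change (set MT over set M) was −4.13, beside 0.006 for all genes. Each set M library contained Alb, Ahsg, Gc, Serpina3k and Mup3, and the set MT libraries of this baseline held these transcripts at or near 0. This does not hold for every member, since 3 of the 50 had a positive log2 fold change.

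Alb, which encodes serum albumin (GRCm38 chromosome 5, 90460897 to 90476602, plus strand), was at 69.6 CPM in its lowest set M library, 312 at the median and 634 in the highest, and at 0 to 0.376 CPM in set MT (median 0.306). No library of either set lay near the range of the other. The log2 fold change was −10.39 ± 0.66 (SE, adjusted p = 3.03e-07), and −8.89 in Leptin-water (adjusted p = 6.2e-08), where set M lay at 67.7 to 380 CPM and set MT at 0.0887 to 0.679. Ahsg, the plasma glycoprotein fetuin-A (chromosome 16, 22891277 to 22899449, plus strand), was at 9.17 to 77.8 CPM (median 38.4) in set M and at most 0.0476 CPM in set MT (adjusted p = 4.98e-07). The vitamin D-binding protein gene Gc was at 7.19 to 54.9 CPM in set M and at most 0.0298 in set MT. Mup3, a major urinary protein, was at 10.0 to 91.2 CPM in set M and had no count in any of the 6 set MT libraries. Against a limit of 3 counts over that group it was at least 4170-fold lower, and Mup14 at least 1433-fold lower. The Mup genes are near-identical copies, so the share of each is uncertain. These limits cover counting error only.

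Within set M the level of Alb varied 9.11-fold between libraries, while 9 other liver transcripts, taken relative to Alb, varied 1.27-fold (Ahsg) to 2.42-fold (Mup20). Albumin counts ranged from 4440 to 29610 per library, with Saline-water 6 lowest and Saline-water 5 highest in CPM. Ahsg amounted to 11.7% to 14.9% of Alb in every set M library, Gc to 7.62% to 10.3%, and the serine protease inhibitor Serpina3k to 17.1% to 26.3%. Mup3 amounted to 9.29% to 21% and the tyrosine aminotransferase transcript Tat to 3.99% to 8.54%. Over the 8 libraries, 138 genes, Alb itself among them, had a Pearson correlation with Alb of at least 0.9 in log2 CPM, given as a description. Of these, 111 were called lower in set MT and 1 higher, beside 6.03% and 6.2% of all genes. Of the 177 genes lower by at least 2-fold (1.08% of all genes), 97 were among the 138. Transcripts that the gut also makes differed less: Trf, transferrin, was at 35.2 to 154 CPM in set M and 12.1 to 18.8 CPM in set MT, 5.4-fold lower on average. One library of set MT outside the baseline, Saline-antibiotic 2, held 41.1 CPM of Alb, 9.2 of Ahsg, 13.7 of Serpina3k and 9.6 of Mup3.

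**Figure D1:**
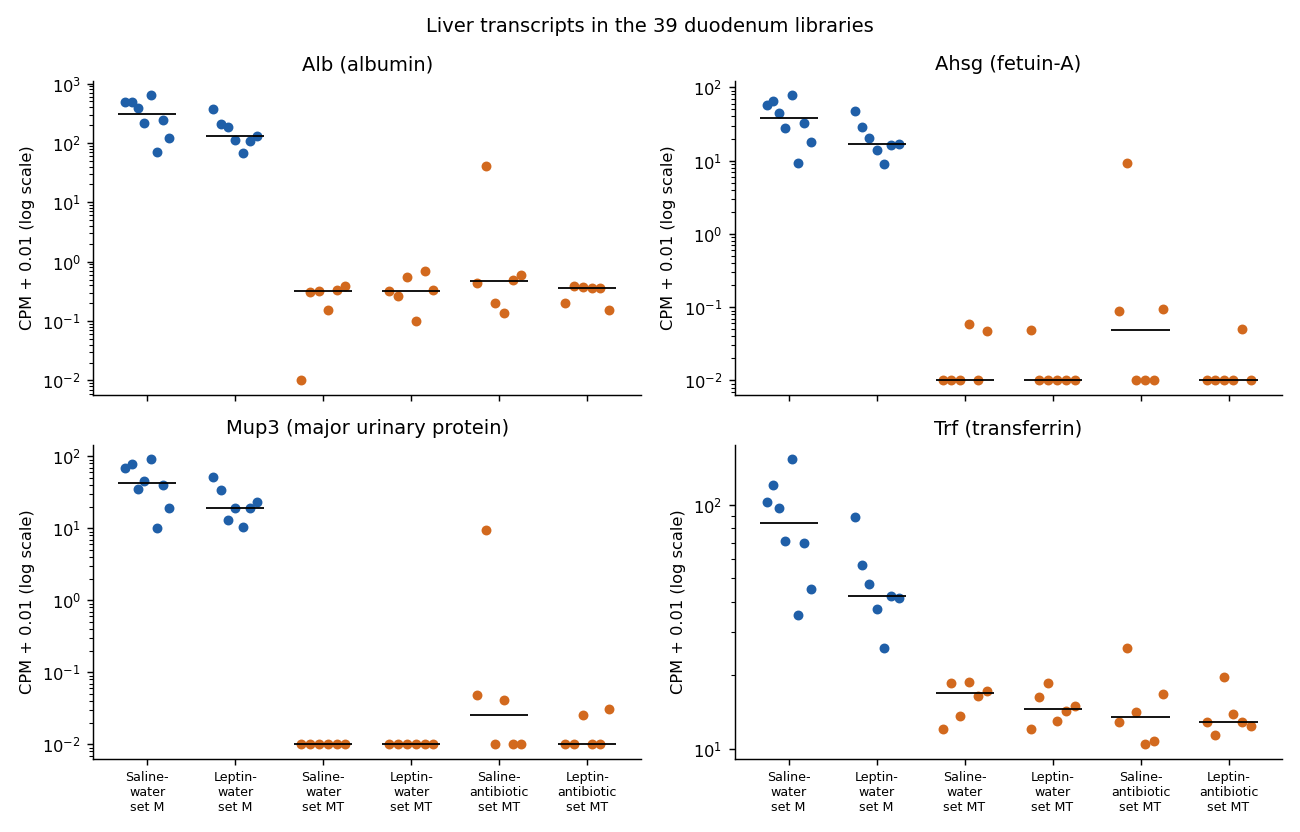
Transcripts of liver in all 39 libraries, as CPM plus 0.01 on a log scale, by group and set; each point is 1 library and each bar a group median. Set M (blue) lies at 67.7 CPM of Alb or more and set MT (orange) near 0, apart from the library Saline-antibiotic 2 at 41.1 CPM, while Trf was detected in every library.

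Of 18 genes of fatty acid synthesis 4 were lower in set MT (Scd1, Thrsp, Acacb and Mlxipl) and 1, the elongase gene Elovl6, was higher, beside 6.03% and 6.2% of all genes, and 2 were lower and none higher with GC correction (described below). Scd1, the fatty acid desaturase that makes oleate, was at 27.4 to 124 CPM (median 62.6) in set M and at 7.28 to 29.9 CPM (median 8.6) in set MT. Only Saline-water 10 of set MT reached the range of set M. The log2 fold change was −2.59 ± 0.40 (adjusted p = 0.000669), and −2.13 in Leptin-water (adjusted p = 0.00336). Thrsp, a lipogenic nuclear protein, was 3.18-fold lower without overlap (adjusted p = 0.00177), and outside the list Abcb4, the phospholipid exporter of bile, was 2.98-fold lower (adjusted p = 0.000298). Car3, the carbonic anhydrase of fat and muscle, was 5.06-fold lower (adjusted p = 0.00859). Scd1, Abcb4, Thrsp and Car3 had correlations with Alb over set M of 0.814, 0.81, 0.643 and 0.637, below the limit used above, and the part of liver RNA in their difference was not tested.

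Small structured RNAs formed the other group with large differences. These are short transcripts that act as RNA: U11 and U12 recognise the rare minor-class introns, U3 and U8 guide the cutting of ribosomal RNA precursors, and box C/D and box H/ACA RNAs guide methylation and pseudouridylation. Of 88 small RNA genes tested, by their RefSeq gene type, 28 were lower in set MT and none was higher, beside 6.03% and 6.2% of all genes. In Leptin-water 28 of 87 were lower and none was higher, beside 8.2% and 8.58% of all genes. With GC correction 24 were lower in each comparison. The median log2 fold change of the list was −0.49, and −0.36 in Leptin-water. The sequences of 3 members, a minor spliceosomal RNA and a pair of box C/D RNAs, show the class, read from the GENCODE transcripts of GRCm38. In Rnu12 (chromosome 15, 83149644 to 83149794, plus strand) capitals mark ATTTTTG, the letters of its Sm-protein site. In Snord15b (chromosome 7, 99479563 to 99479707, minus strand, inside an annotated exon of Rps3) and Snord118, the U8 RNA (chromosome 11, 69073427 to 69073561, plus strand), capitals mark TGATGA, the box C core, and CTGA, the box D letters.
Rnu12: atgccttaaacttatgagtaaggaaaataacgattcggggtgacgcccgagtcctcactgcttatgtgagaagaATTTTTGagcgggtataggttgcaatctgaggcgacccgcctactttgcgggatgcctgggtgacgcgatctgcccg
Snord15b: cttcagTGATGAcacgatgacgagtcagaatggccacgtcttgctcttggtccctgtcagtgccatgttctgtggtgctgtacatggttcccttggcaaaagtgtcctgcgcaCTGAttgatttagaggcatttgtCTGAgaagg
Snord118: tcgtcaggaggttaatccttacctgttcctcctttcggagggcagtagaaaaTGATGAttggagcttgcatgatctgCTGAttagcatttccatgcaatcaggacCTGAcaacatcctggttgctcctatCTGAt
On the transcribed strand, TGATGA occurred in 31 of 75 snoRNA genes (41.3%) and in 58 of all 237 genes of at most 400 bases (24.5%). CTGA occurred in 60 (80%) and 150 (63.3%), and ATTTTTG in 1 (1.3%) and 4 (1.7%).

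Rnu12 was at 43.3 to 70.6 CPM (median 52.4) in set M and at 1.13 to 29.2 CPM (median 15.9) in set MT. The sets did not overlap, and Saline-water 13 was far below the other set MT libraries, at 1.13 CPM. The log2 fold change was −1.80 ± 0.38 (adjusted p = 0.00628), and −2.001 in Leptin-water (adjusted p = 0.00138). Its partner Rnu11 was 3.48-fold lower in Saline-water (adjusted p = 0.000306), and in Leptin-water its log2 value was −0.82 (adjusted p = 0.165). Rnu3a, a U3 gene (chromosome 10, 40258467 to 40258679, plus strand), was at 12.4 to 33.6 CPM (median 24.1) in set M and 0.147 to 3.71 CPM (median 2.8) in set MT, a log2 fold change of −3.18 ± 0.38 (adjusted p = 6.04e-05). Snord118 was at 3.96 to 7.21 CPM and 0.319 to 2.76 CPM (log2 −1.65, adjusted p = 0.00159), again without overlap.

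Box H/ACA RNAs moved the same way where they passed. Snora23 was 3.26-fold lower (adjusted p = 9.13e-05) and Snora81 1.88-fold lower (adjusted p = 3.6e-05), each below the whole range of set M, and Snora81 lies within the transcription unit of Eif4a2. Rmrp was at 798 to 1269 CPM in set M and 548 to 635 in set MT (log2 −0.77, adjusted p = 0.000187), and Rpph1 at 3534 to 4879 and 1393 to 2906 CPM (log2 −0.68, adjusted p = 0.00517, and 0.0565 with GC correction). Snord15b did not pass (log2 −1.03 ± 0.34, adjusted p = 0.0537), although its set MT range of 1.08 to 17.8 CPM lay below 21.3 to 30.4 CPM in set M. Saline-water 13 was lowest of all 14 libraries for Rnu12, Rnu3a, Snord118, Snord15b, Snora74a and Rpph1. An exon length of at most 500 bases and a mean log2 CPM of at least 1 held for 80 genes. Their median log2 deviation from the set median was −0.422 in Saline-water 13. In the other 13 libraries it was −0.051 to 0.116. Without Saline-water 9 and 13, 32 small RNA genes were lower and none was higher.

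**Figure D2:**
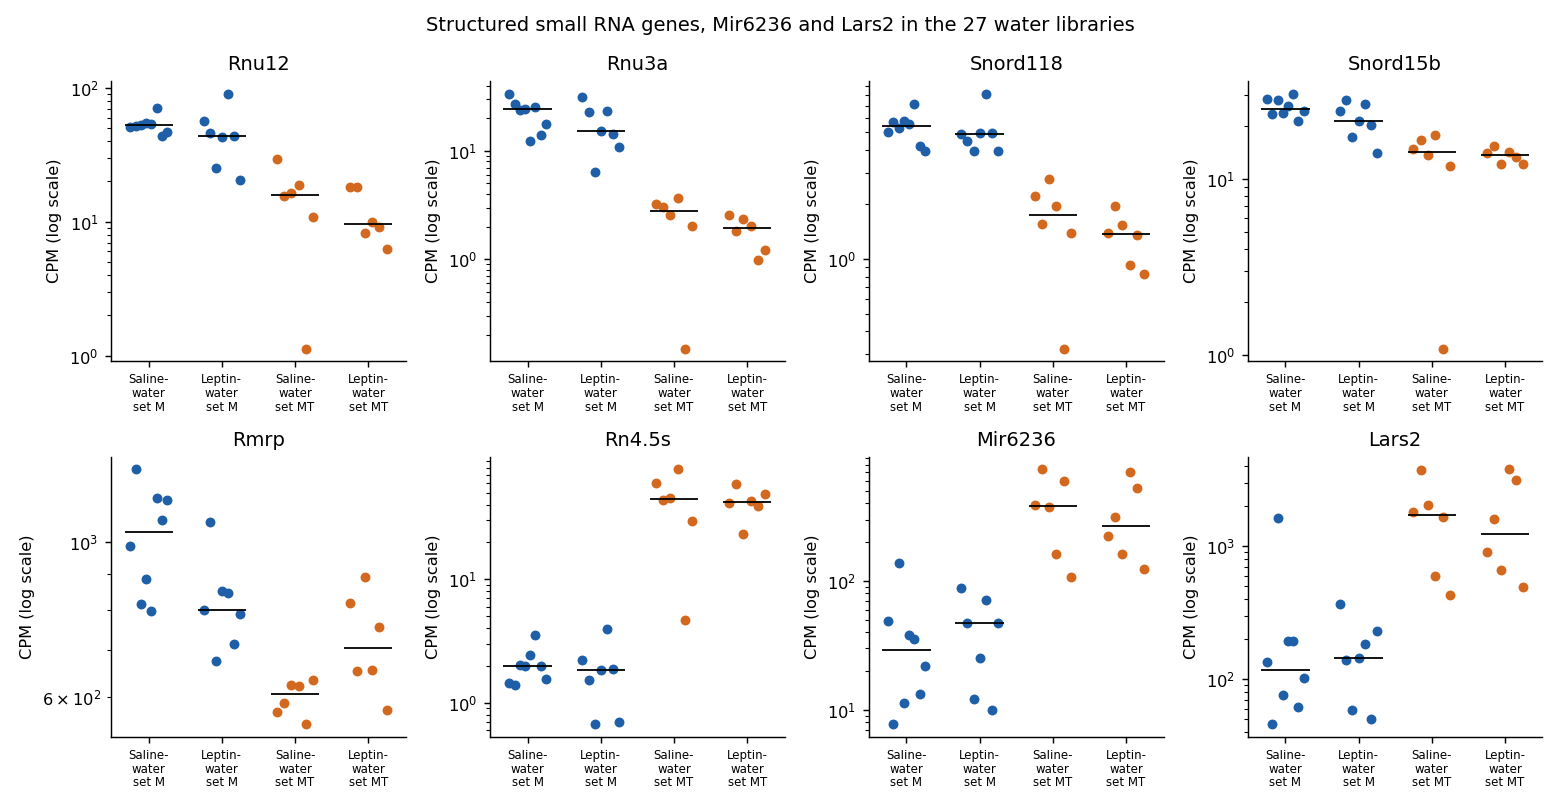
CPM on a log scale of 6 structured RNA genes, of Mir6236 and of Lars2 in the 27 water libraries; each point is 1 library and each bar a group median, blue for set M and orange for set MT. Rnu12, Rnu3a, Snord118 and Snord15b lie lower in set MT under saline, Saline-water 13 lies lowest, and Rn4.5s lies higher in every set MT library.

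Several transcripts ran in the opposite direction. Rn4.5s, the rodent 4.5S RNA, was at 1.4 to 3.54 CPM (median 2.0) in set M and 4.67 to 77.2 CPM (median 44.5) in set MT, and its lowest set MT value was again Saline-water 13. The log2 fold change was 4.40 ± 0.42 (adjusted p = 5.42e-06), and 4.51 in Leptin-water. The gene had no GC value. It has many copies in the genome, so the placing of its reads is uncertain. The annotated microRNA locus Mir6236 was at 7.71 to 137 CPM in set M and 107 to 735 CPM in set MT (log2 3.33 ± 0.58, adjusted p = 0.00188). Lars2, the mitochondrial leucyl-tRNA synthetase gene, was at 45.8 to 1647 CPM (median 118) and 430 to 3742 CPM (median 1732). Its high set M value came from Saline-water 3 alone. Its log2 fold change of 2.49 (adjusted p = 0.0388) missed the threshold in 11 of 14 fits that left out 1 library, with adjusted p-values of 0.000153 to 0.0838 over these fits, and with GC correction (0.0636). In Leptin-water it was 3.39 (adjusted p = 0.00105).

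Beside these groups, a small difference ran through the whole transcriptome along base composition. Among 736 genes whose longest transcript has 20% to 40% G and C, the median log2 fold change was 0.222, and 35.6% of genes were called higher and 0.815% lower in set MT. Among 2269 genes with 56% to 80% the median was −0.118, with 0.926% called higher and 17.2% lower. In Leptin-water the medians of those bins were 0.196 and −0.139. With each library corrected for its trend on GC content, an alternative chosen after the data were seen, 830 of 15972 genes (5.2%) differed in Saline-water, 394 (2.47%) higher and 436 (2.73%) lower. In Leptin-water the same correction left 1215 of 15970 genes (7.61%), 558 (3.49%) higher and 657 (4.11%) lower. The Saline-water genes included 681 of the 1953 genes called before that had a GC value, and counts and adjusted p-values with GC correction are given below where it ended a call.

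**Figure D3:**
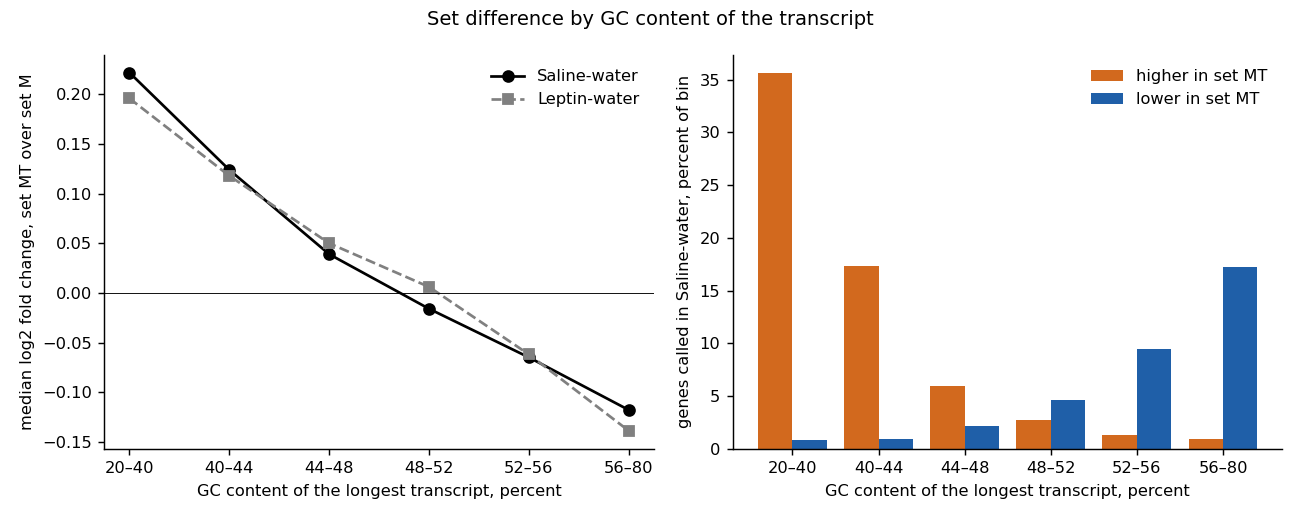
Left, the median log2 fold change of set MT over set M for genes grouped by the GC content of the longest transcript, in Saline-water and in Leptin-water; right, the percent of genes in each bin called higher or lower in Saline-water. The Saline-water median runs from 0.222 in the bin of lowest GC content to −0.118 in the bin of highest.

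Genes of KRAB-type and other zinc finger proteins, whose transcripts have a low GC content (median 44.6%, beside 49.8% for all genes), showed this. Of 335 tested genes with a Zfp symbol, 68 were higher and 13 lower in set MT, beside 6.2% and 6.03% of all genes. With GC correction 15 of 333 were higher and 5 lower, beside 2.47% and 2.73% of all genes. Zfp994 was among the clearest, at 7.49 to 10.5 CPM (median 9.18) in set M and 13.8 to 16.5 CPM (median 14.7) in set MT. The sets did not overlap, the log2 fold change was 0.71 ± 0.07 (adjusted p = 1.21e-05), and it was 0.50 with GC correction (adjusted p = 0.000273) and 0.56 in Leptin-water (adjusted p = 0.00287). Zfp995, Zfp973 and Zfp820 were 1.63-fold, 1.8-fold and 1.67-fold higher, also without overlap and also called with GC correction. Srp54a, a subunit of the signal recognition particle, was at 29.3 to 37.8 CPM and 44 to 59.5 CPM (log2 0.61, adjusted p = 6.83e-05), and 0.60 in Leptin-water.

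Transcripts of several gut wall cell types were higher in set MT under saline, with the most called members in the list of enteric neurons. Enteric neurons and glia form the plexuses that drive peristalsis and secretion. Of 23 tested genes of this list 8 were higher and none lower (beside 6.2% and 6.03% of all genes), 7 with GC correction, and the median log2 fold change was 0.47. Stmn2, a microtubule regulator of neurons, was at 1.01 to 2.28 CPM (median 1.37) in set M and 2.9 to 3.81 CPM (median 3.04) in set MT. Syt1, a calcium sensor of synaptic vesicles, was at 2.11 to 3.71 and 4.13 to 7.17 CPM. Neither gene overlapped between the sets, with log2 fold changes of 1.09 ± 0.17 (adjusted p = 0.00081) and 1.01 ± 0.15 (adjusted p = 0.000328). Elavl4, a neuronal RNA-binding protein, was 2.39-fold higher (adjusted p = 0.00264), Chrna3, a nicotinic receptor subunit of enteric ganglia, 1.81-fold (adjusted p = 0.00682) and Tubb3, a neuronal tubulin, 1.81-fold (adjusted p = 0.00888).

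In Leptin-water the values had the other sign. There none of the neuron and glia genes was higher and 1 was lower (median −0.20), a call that GC correction ended, with Stmn2 at a log2 value of −0.17 (adjusted p = 0.697) and Syt1 at −0.24 (adjusted p = 0.561). The difference between the set effects was −1.25 for Stmn2 (adjusted p = 0.135) and −1.24 for Syt1 (adjusted p = 0.121), so it did not pass for either gene. Of the neuron and glia genes, 19 had a negative value in that test and none was called. When smooth muscle and exocrine pancreas scores were added as covariates, 2 genes of the list stayed higher.

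Smooth muscle genes had medians of the same signs. Of 20 tested, 5 were higher in set MT under saline (median 0.15), beside 6.2% of all genes. Under leptin none was higher and 7 were lower (median −0.41), beside 8.58% and 8.2% of all genes. With GC correction 5 were higher under saline and none was lower under leptin. Pgm5, a protein of muscle adhesion sites, was at 42.0 to 62.2 CPM (median 48.8) in set M and 58.2 to 94.9 CPM (median 66.5) in set MT (log2 0.53 ± 0.11, adjusted p = 0.00607), and its log2 value in Leptin-water was −0.36 (adjusted p = 0.258). Acta2, smooth muscle actin, was 1.35-fold higher (adjusted p = 0.0281), a call lost in 5 of 14 fits without 1 library. Myh11, the smooth muscle myosin, did not differ by the test under saline (log2 0.00 ± 0.13, adjusted p = 0.999) and was lower under leptin (−0.81, adjusted p = 0.0283, and 0.0571 with GC correction). All 20 genes had a negative difference between the set effects, and none passed that test. The sum over the list also varied within the sets: its mean log2 CPM was 5.86 to 6.51 in set M and 6.19 to 6.70 in set MT, so the ranges overlapped. Mab21l2, a developmental regulator expressed in gut mesenchyme, did pass: it was at 15.2 to 17.5 CPM in set M and 19.1 to 25 CPM in set MT under saline (log2 0.36, adjusted p = 0.00268), at 16.8 to 20.8 and 14.8 to 18.7 CPM under leptin, and the difference was −0.53 ± 0.10 (adjusted p = 0.0378).

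Part of the list for interstitial cells of Cajal, the pacemaker cells of gut muscle, was higher under saline. Of its 10 genes 4 were higher and none lower, beside 6.2% and 6.03% of all genes, and all 4 remained called with GC correction. In Leptin-water 1 was higher and 1 lower (median −0.004). Etv1, a transcription factor of these cells, was at 3.75 to 5.72 CPM and 7.38 to 10.3 CPM (log2 0.76 ± 0.11, adjusted p = 0.000358), and Gja1, the gap junction protein connexin 43, at 24.3 to 31.2 and 32.4 to 50 CPM (0.60 ± 0.09, adjusted p = 0.000322). Kcnn3, a calcium-activated potassium channel found also in the second type of interstitial cell, was 1.48-fold higher (adjusted p = 0.00102). Kit itself, the receptor that defines these cells, did not pass (log2 0.17 ± 0.07, adjusted p = 0.117), nor did the chloride channel Ano1 (−0.21 ± 0.15, adjusted p = 0.383). Pdgfra, the receptor that marks that second type and fibroblasts, was at 56.7 to 68.9 CPM and 69.5 to 97.6 CPM (log2 0.43 ± 0.07, adjusted p = 0.000878), and its value in Leptin-water was 0.42 (adjusted p = 0.00294).

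Of 23 fibroblast and collagen genes 3 were higher (13%, beside 6.2% of all genes), and 6 with GC correction, 6 with upper-quartile factors and 9 with library totals alone. Lum, a leucine-rich proteoglycan of collagen fibres, was 1.61-fold higher without overlap (adjusted p = 0.0022), and Fbn1, fibrillin, 1.24-fold (adjusted p = 0.00649). Aspn, an extracellular matrix proteoglycan outside the list, was at 3.71 to 5.46 CPM (median 4.29) and 6.78 to 10.3 CPM (median 9.13), 0.99 ± 0.11 higher on the log2 scale (adjusted p = 2.41e-05), and 0.61 in Leptin-water (adjusted p = 0.00171, and 0.0505 with GC correction). In mesothelium, the outer lining of the gut, 3 of 7 genes were higher, 2 with GC correction, with a median of 1.14 that rests on low counts. Upk3b, a mesothelial uroplakin, was at 0.168 to 0.783 CPM and 0.561 to 3.55 CPM (log2 1.71 ± 0.40, adjusted p = 0.0111). For lymphatic endothelium 2 of 6 genes were higher: Mmrn1, a secreted protein of these vessels, was 1.68-fold higher (adjusted p = 0.00278) and Pdpn, podoplanin, 1.49-fold (adjusted p = 0.0106). Both were also called in Leptin-water, with log2 values of 0.70 and 0.54, the call of Mmrn1 there ending with GC correction (adjusted p = 0.114).

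**Figure D4:**
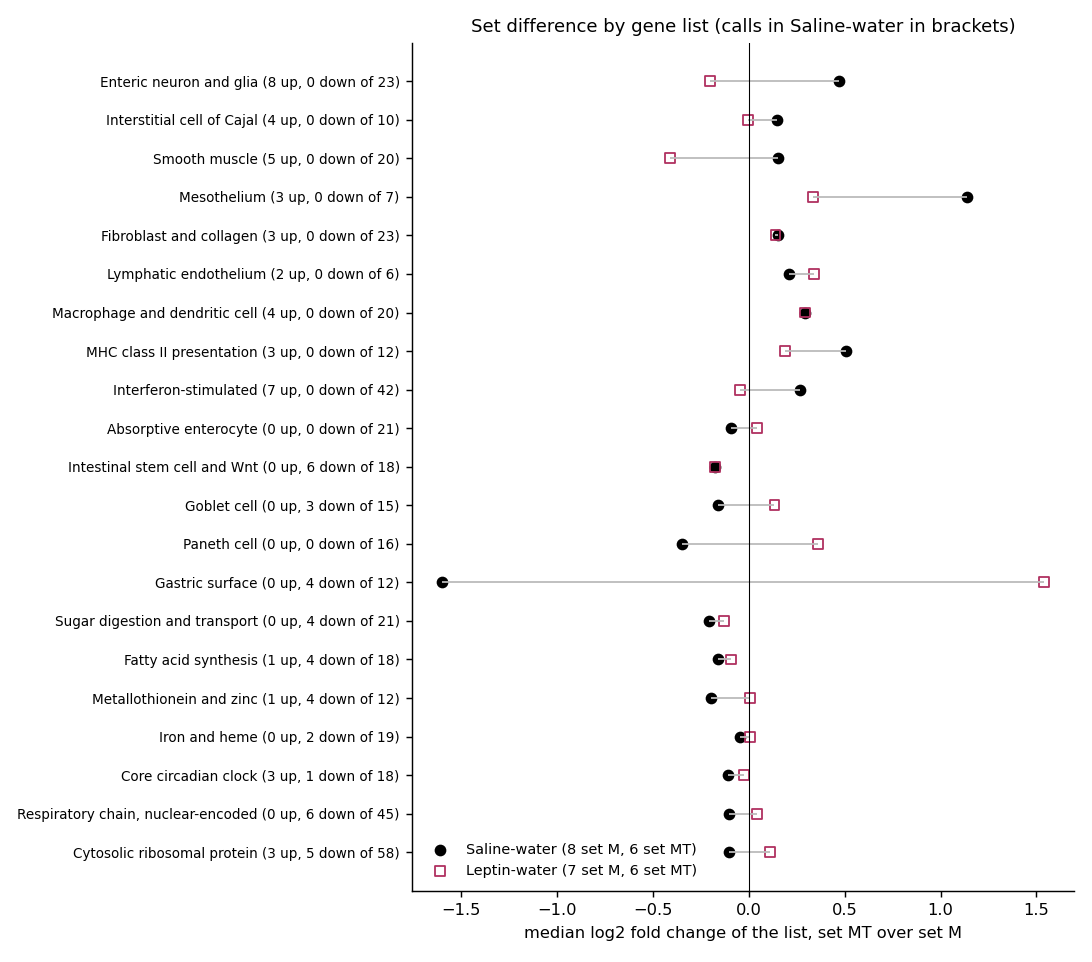
Median log2 fold change of set MT over set M for the members of 21 gene lists, filled circles for Saline-water and open squares for Leptin-water; the numbers of members called higher and lower in Saline-water stand beside each name. Neuron, smooth muscle and gastric surface genes lie on opposite sides of 0 under the 2 injections. So do other lists, among them Paneth cell, goblet cell and ribosomal protein genes. Macrophage, fibroblast and stem cell genes lie at nearly the same value.

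Immune transcripts were higher in set MT in part. Of 20 macrophage and dendritic cell genes 4 were higher and none lower, 3 with GC correction, and 7 were higher in Leptin-water, beside 6.2% and 8.58% of all genes. C1qa, a complement subunit made by tissue macrophages, was at 20.1 to 25.1 CPM (median 21.7) and 22.7 to 51.2 CPM (median 29.1), 0.53 ± 0.14 higher on the log2 scale (adjusted p = 0.0191), and 0.56 in Leptin-water (adjusted p = 0.00579). The sets overlapped. Clec9a, a receptor of cross-presenting dendritic cells, was 1.36-fold higher (adjusted p = 0.0208), and missed the threshold with GC correction (adjusted p = 0.0754). The mannose receptor Mrc1 and C1qb each lost their call in 9 of 14 fits without 1 library, with adjusted p-values of up to 0.0896 and 0.0772, and Mrc1 also with GC correction (adjusted p = 0.152).

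Antigen presentation by MHC class II rested on a pair of libraries. Cd74, the invariant chain, was at 936 CPM in Saline-water 12 and 937 in Saline-water 13 and at 267 to 339 CPM in the other 4 set MT libraries, beside 212 to 392 CPM in set M. Its call (log2 0.93, adjusted p = 0.0412) was lost in 9 of 14 fits without 1 library, with an adjusted p of up to 0.111 without Saline-water 12. Of 12 genes of the list 3 were called, 1 without Saline-water 9 and 13, and 1 with GC correction. Of 42 interferon-stimulated genes 7 were higher in Saline-water (16.7%, beside 6.2% of all genes) and none in Leptin-water. The 7 became 2 without Saline-water 9 and 13, and 2 with GC correction. Gbp2, an interferon-induced GTPase, was at 8.38 to 14.8 CPM and 17.3 to 29.3 CPM, without overlap (log2 0.81 ± 0.14, adjusted p = 0.00121), and Cxcl9, a chemokine that attracts T cells, was 1.93-fold higher (adjusted p = 0.00564). Their values in Leptin-water were 0.37 (adjusted p = 0.0728) and 0.27 (adjusted p = 0.507).

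In the epithelium, crypt genes differed in part. Wnt signals keep crypt cells dividing, and several of their targets act as brakes or position cells along the crypt. Of 18 tested stem cell and Wnt genes 6 were lower and none was higher in set MT, beside 6.03% and 6.2% of all genes. With GC correction 4 were lower. In Leptin-water 3 were lower, beside 8.2% of all genes, and 2 with GC correction. Rnf43, a ligase that removes Wnt receptors, was at 134 to 158 CPM (median 149) in set M and 70.3 to 126 CPM (median 108) in set MT. The sets did not overlap, and the log2 fold change was −0.52 ± 0.11 (adjusted p = 0.00514), and −0.36 in Leptin-water (adjusted p = 0.000357). Notum, an enzyme that inactivates Wnt ligands, was at 2.08 to 4.06 CPM and 1.05 to 1.76 CPM (log2 −1.05 ± 0.17, adjusted p = 0.00123), and its value in Leptin-water was −0.25 (adjusted p = 0.543). Ephb3, which sorts cells along the crypt, was 1.73-fold lower (adjusted p = 0.00639) and Sox9, a factor of crypt base and progenitor cells, 1.46-fold lower (adjusted p = 0.00937). The stem cell marker Lgr5 did not differ by the test (log2 0.00 ± 0.12, adjusted p = 1), nor did Olfm4 (0.19 ± 0.16, adjusted p = 0.463). None of 26 cell cycle genes was called by edgeR or DESeq2, and 3 had an unadjusted p under 0.05.

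Genes of sugar digestion and transport were lower in part: 4 of 21 (19%, beside 6.03% of all genes), with 12 at an unadjusted p under 0.05 and a negative value in 18. Slc2a7, a hexose transporter of the small intestine, was at 66.5 to 83 CPM (median 72.4) in set M and 44.8 to 57.6 CPM (median 52.1) in set MT. The sets did not overlap, and the log2 value was −0.51 ± 0.07 (adjusted p = 0.000204), and −0.45 in Leptin-water (adjusted p = 0.011, and 0.0541 with GC correction). With GC correction 1 of the 21 genes was lower, and the sucrase gene Sis did not pass (log2 0.11, adjusted p = 0.715). The iron exporter ferroportin, Slc40a1, was at 1111 to 1599 CPM and 749 to 1080 CPM (log2 −0.38 ± 0.10, adjusted p = 0.0191), and the iron importer Slc11a2 at 508 to 1077 and 152 to 651 CPM (−0.93 ± 0.24, adjusted p = 0.0192). Both were lower in Leptin-water too, by −0.31 and −0.73, and they were the only called members of 19 iron and heme genes in the Saline-water fit (10.5%, beside 6.03% of all genes). The zinc transporter Slc30a2 was at 79 to 101 CPM and 59.05 to 83.15 CPM (log2 −0.37, adjusted p = 0.00688). Akp3 was 1.47-fold lower (adjusted p = 0.0125), which GC correction ended (adjusted p = 0.0587).

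Other epithelial genes varied by function. Vegfa, the endothelial growth factor, was at 120 to 147 CPM in set M and 74.5 to 113 CPM in set MT (log2 −0.41 ± 0.08, adjusted p = 0.00522), and −0.39 in Leptin-water (adjusted p = 0.00088). Nt5e, an enzyme of the villus tip that makes adenosine, was 1.61-fold higher (adjusted p = 0.00384), with a value of 0.06 in Leptin-water (adjusted p = 0.812). The villus tip list did not rise with it. Of its 16 genes 1 was higher and 2 were lower, beside 6.2% and 6.03% of all genes, and 11 had a negative value. With GC correction 1 was higher and none was lower. Of 15 goblet cell genes 3 were lower (20%, beside 6.03% of all genes), and 1 with GC correction. Among the 3 was Creb3l1, a secretory transcription factor (1.69-fold, adjusted p = 0.0115), whereas Muc2, the main secreted mucin, did not pass (log2 −0.16 ± 0.07, adjusted p = 0.141). Of the Paneth cell list none of 16 genes was called by edgeR or DESeq2, and none had an unadjusted p under 0.05. Of 24 enteroendocrine genes 2 were higher (8.33%, near the 6.2% of all genes), Scg2, a granin of hormone granules (13.7 to 17.7 CPM in set MT, 8.88 to 12.1 in set M, log2 0.56, adjusted p = 0.000606), and Cpe, a prohormone-processing enzyme (0.55, adjusted p = 0.00398). Scg2 and Cpe are also made by enteric neurons, and their values in Leptin-water were −0.03 and −0.20, neither called.

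Gastric surface transcripts had medians of opposite sign under the 2 injections, a difference that no member showed by the test. Surface cells of the stomach make the mucin Muc5ac, the trefoil peptide Tff1 and gastrokines. A gastric surface list of 12 genes was assembled after the data were seen, so its counts are a description. In Saline-water 4 were lower in set MT and none was higher (median log2 −1.60), beside 6.03% of all genes lower. In Leptin-water 3 were higher and none was lower (median 1.54), beside 8.58% of all genes higher. With GC correction 2 were lower in Saline-water and 2 higher in Leptin-water. All 12 had a positive difference between the set effects, and none passed that test. Tff1 was at 1.31 to 140 CPM (median 62.1) in set M and 1.34 to 22.9 CPM (median 14.6) in set MT, a log2 fold change of −2.30 ± 0.66 (adjusted p = 0.0315) whose call was lost in 5 of 14 fits without 1 library and with GC correction (adjusted p = 0.0578). In Leptin-water the value was 1.66 (adjusted p = 0.0698). Muc5ac was at 4.41 to 671 CPM and 2.61 to 138 CPM (log2 −2.42 ± 0.86, adjusted p = 0.0738). Saline-water 5 of set M and Saline-water 9 of set MT were lowest in their sets, at 3.08 and 3.72 CPM of Gkn1 beside 32.5 to 423 CPM in the other 12 libraries. Muc6 was at 11550 to 35400 CPM (median 20230) and 5669 to 15990 CPM (median 9701), 2.03-fold lower (adjusted p = 0.0233) with overlap, and its Leptin-water value was −0.72 (adjusted p = 0.311). Its call was lost in 1 of 14 fits, without Saline-water 14 (adjusted p = 0.0539), and with GC correction (adjusted p = 0.0513).

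The genes whose set difference itself differed by injection, 7 in all, can be given one by one, each with 8 and 6 Saline-water and 7 and 6 Leptin-water libraries. Krt7, a keratin of simple ductal and gastric epithelia, was at 22.2 to 55.3 CPM in set M and 19.4 to 33.3 in set MT under saline, and at 19.5 to 29.1 and 25.9 to 42.9 CPM under leptin. Its set effect was −0.63 and then 0.59, a difference of 1.24 ± 0.23 (adjusted p = 0.0378). S100a6, a calcium-binding protein, went from −0.71 to 1.03, a difference of 1.76 ± 0.33 (adjusted p = 0.0378), and Cwh43, a protein of lipid-anchor remodelling, from −1.31 to 1.67, a difference of 2.99 ± 0.56 (adjusted p = 0.0378). Acsm3, a medium-chain acyl-CoA synthetase, went from −0.42 to 0.61 (difference 1.03, adjusted p = 0.0378) and Dhrs9, a retinol-type dehydrogenase, from −0.59 to 1.02 (difference 1.62, adjusted p = 0.0477). Gldc, the glycine cleavage enzyme, was at 1.48 to 2.94 CPM and 0.357 to 1.01 CPM under saline and at 0.468 to 2.36 and 1.19 to 2.88 CPM under leptin (difference 2.29, adjusted p = 0.0477). Mab21l2 is given above. With GC correction or with the replicate number as a block, none of the 7 passed (1652 genes, 10.3%, and 1724 genes had an unadjusted p under 0.05), and DESeq2 called 75 genes.

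Of 58 cytosolic ribosomal protein genes 3 were higher and 5 lower in Saline-water, shares of 5.17% and 8.62% near the 6.2% and 6.03% of all genes, and 3 and 3 with GC correction. In Leptin-water 15 were higher and none lower, beside 8.58% and 8.2% of all genes. Rps12 was at 25.9 to 46.9 CPM in set M and 50 to 84.5 CPM in set MT (log2 0.76 ± 0.13, adjusted p = 0.00115), and Rpl10 at 69 to 103 and 109 to 162 CPM (0.61 ± 0.09, adjusted p = 0.000423). Both ranges were separate, and the Leptin-water values were 1.01 and 0.97. Rpl12 ran the other way, at 92.7 to 123 and 66.1 to 88.7 CPM (log2 −0.42, adjusted p = 0.00273). Ribosomal protein genes have processed copies in the genome, so part of their reads may have been placed elsewhere. Of 45 nuclear-encoded respiratory chain genes 6 were lower and none higher (13.3%, beside 6.03% of all genes lower). The count of lower genes was 6 with GC correction and 1 with library totals alone. Atp5e, an ATP synthase subunit with a short transcript, was at 61.2 to 69.9 and 21.1 to 55.6 CPM (log2 −0.55, adjusted p = 0.025). The nuclear long RNA Neat1 was at 1389 to 2312 and 940 to 1420 CPM (log2 −0.51 ± 0.11, adjusted p = 0.00785), and −0.58 in Leptin-water (adjusted p = 0.0132).

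Spread within a set was measured as the SD of log2 CPM over libraries, for 9964 genes whose mean log2 CPM was 3 or more, as a description. Its median was 0.11 in set M and 0.171 in set MT, and 80.5% of these genes had the higher SD in set MT. Without Saline-water 13 the set MT median was 0.135, without Saline-water 9 it was 0.159, and without both 0.116. The 15 most variable genes held the lectins Reg3b and Reg3g, the gastric surface genes Muc5ac, Gkn1, Gkn2, Tff1, Cldn18 and Anxa10, and Mucl3, Mal, B3galt5, Sptssb, Lars2, Mir6236 and Alb. Steady genes included Gid8, a subunit of a ubiquitin ligase, at 58.4 to 61.3 CPM over all 14 libraries, and Ralgapb, at 126 to 140 CPM.

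Reg3b and Reg3g encode C-type lectins that the gut secretes against bacteria. Reg3b was at 7099 CPM in Saline-water 9 of set MT and 3114 in Saline-water 6 of set M, and at 23.9 to 268 CPM in the other 12 libraries. Reg3g was at 3093 and 1173 CPM in those libraries. The Reg3 genes are close copies and may share reads. B3galt5, a galactosyltransferase, was at 202 CPM in Saline-water 9, 24.4 in Saline-water 6 and 6.74 to 14.9 CPM in the others. The same pair of libraries stood highest on the first component of the data with set means removed (27.6% of variance; 25.65 for Saline-water 9 and 12.36 for Saline-water 6), and Saline-water 13 stood lowest (−19.47). The second component held 23%, with Saline-water 13 highest at 23.91.

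Other lists moved in these libraries as well. The mean log2 CPM of 16 tested Paneth cell genes was 5.63 in Saline-water 6 and 5.05 in Saline-water 9, and 2.75 to 4.45 in the other 12. Defa24, a Paneth cell defensin, was at 74.3 CPM in Saline-water 6, 27.6 in Saline-water 9 and 4.42 to 28.1 in the others, so Saline-water 9 was within their range for this gene. The defensin genes are close copies, and their values are uncertain to that extent. The list of PXR and CAR targets, genes of drug metabolism, was lowest in the same libraries, at 5.48 and 5.21 beside 5.95 to 7.10. Cyp2c29, a cytochrome P450 of this group, was at 17.8 CPM in Saline-water 9 and 39.01 in Saline-water 6, and at 18.7 to 203 CPM in the others. The gastric surface list had the highest pooled SD of a list score, 1.40. It was assembled after the data were seen, so this rank is a description. The stomach and Brunner gland list, which shares Tff1, Vsig1 and Capn8 with it, followed at 0.87 and the Paneth list at 0.75. The absorptive enterocyte list had 0.15 and the goblet cell list 0.10. Whether position along the duodenum or the state of the tissue moved with these libraries was not tested.

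**Figure D5:**
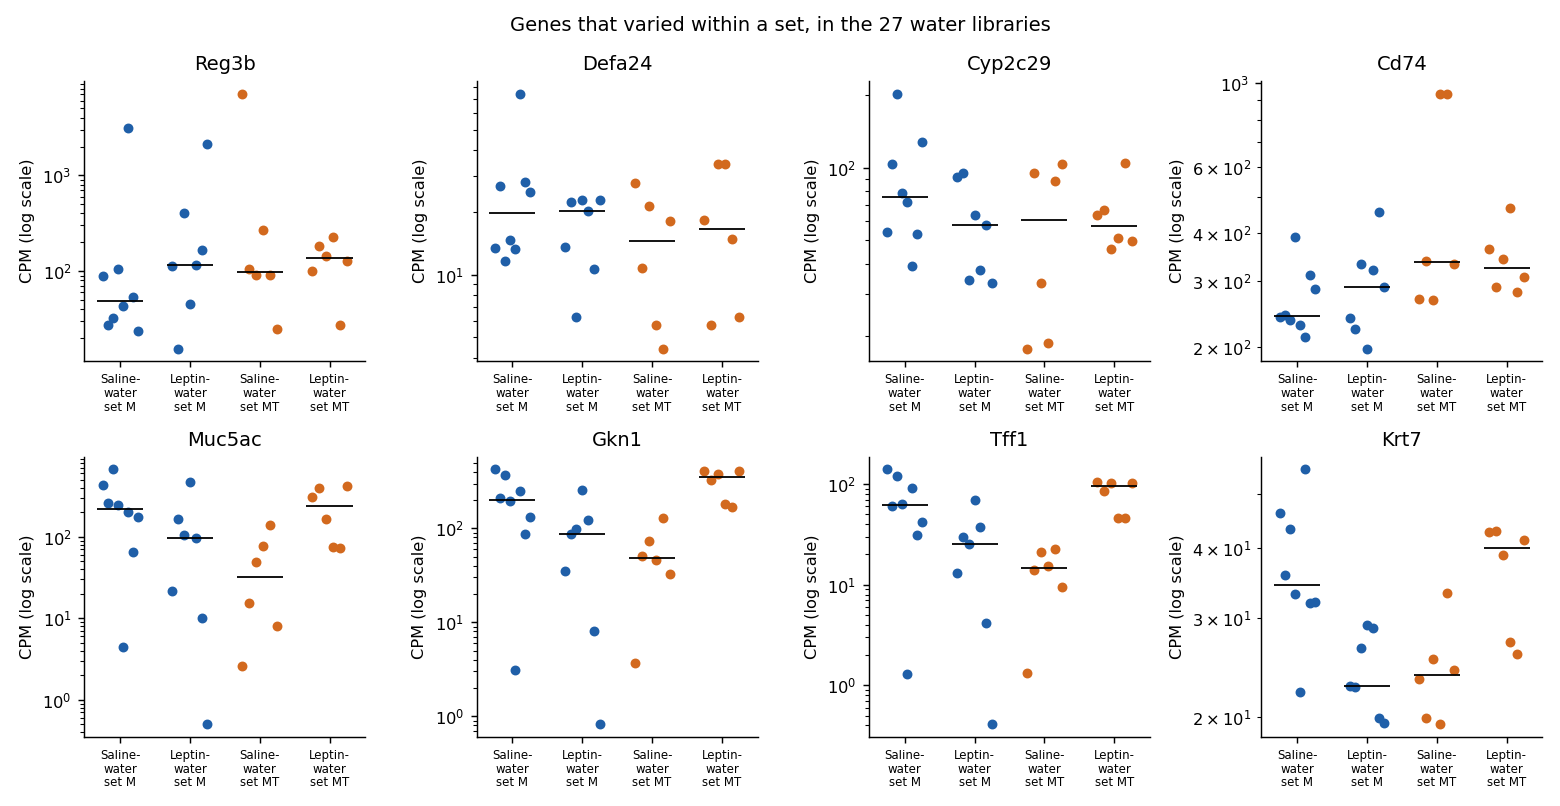
CPM on a log scale of 8 genes in the 27 water libraries by group and set; each point is 1 library and each bar a group median. Reg3b has 1 library above 2000 CPM in each of 3 groups, Cd74 has 2 set MT libraries at 936 and 937 CPM, and Gkn1 has a library below 4 CPM in 3 groups.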

How the data were processed

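Total RNA of the duodenum was sequenced as stranded, ribosomal-RNA-depleted, paired-end libraries, per the labels' protocols. FastQC, HISAT2, featureCounts, edgeR 3.42.0 and the build mm10 are named in the submitters' processing notes; how genes were annotated, stranded and filtered in counting is not given in the sources used here. Raw counts deposited by the authors formed 1 table (16358 genes, 39 libraries), whose columns were matched to titles by name; 0 columns belonged to no sample.

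Counts were analysed in R 4.3.3 with edgeR 4.0.16 (TMM factors, filterByExpr, quasi-likelihood F test, Benjamini-Hochberg threshold 0.05), separately in Saline-water and Leptin-water, with the interaction in all 27. Each adjusted p is from that test unless another tool is named. SE is the size of the log2 fold change divided by the root of F. CPM used TMM factors of all 39 libraries. The procedure was tested on simulated data. Of 43 pairs of libraries within a set none was identical (chi-square per degree of freedom of 22 to 183.9). GC content and exon length came from GENCODE (GRCm38), which matched 15996 symbols (97.8%), and gene types from RefSeq (16284 genes). The GC correction was a loess of each library on GC content (span 0.4).

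The members and gene lists were chosen with earlier results of these data known. Genes were named by rule: the 10 highest and 10 lowest fold changes and the 5 lowest p-values in each direction (mean log2 CPM of at least 1), up to 4 called members of each list with at least 5 tested, the 20 highest levels per kilobase, the 15 highest and 10 lowest spreads (mean log2 CPM of at least 3) and up to 4 interaction genes in each direction. Lgr5, Olfm4, Kit, Ano1, Myh11, Pdx1, Gata4, Slc10a2, Atp4a, Cd74, Gkn1, Snord118 and other genes beyond these were named after their values were seen. Intervals and limits for absent transcripts (3 counts) cover counting error only. Alternatives were DESeq2 1.42.0, limma 3.58.1 (voom), surrogate variables (sva 3.50.0), other scalings, filters and covariates, and left-out libraries.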

Additional observations from a re-analysis of the deposited data

Results flagged for a closer look

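Within each set, a library was singled out when its gap to the nearest other library took more of the set's whole range than Dixon's 95% value for that number of libraries. Of 147 pairs of a named gene and a set examined, 30 (20.4%) had such a library. Chance gives about 1 in 20, and some of these genes were named for their spread, so the count is a description.

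In set M, Saline-water 5 stood lowest for genes of the gastric surface: Cldn18, a stomach claudin, at 0.64 CPM, the gastrokines Gkn1 at 3.08 CPM and Gkn2 at 3.15 CPM, Muc5ac at 4.41 CPM and Tff1 at 1.31 CPM. Saline-water 6 stood highest for the lectins Reg3b at 3114.05 CPM and Reg3g at 1173.32 CPM and for Rnu12 at 70.63 CPM. It stood lowest for the glucuronosyltransferase gene Ugt2b5 at 31.89 CPM. Saline-water 3 was highest for Lars2 at 1647.26 CPM, Nt5e at 54.79 CPM and Vegfa at 147.26 CPM. Among iron transporters, Saline-water 1 was highest for Slc11a2 at 1076.84 CPM and Saline-water 4 for Slc40a1 at 1599.44 CPM.

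In set MT, Saline-water 13 was lowest for short transcripts: Rn4.5s at 4.67 CPM, Rnu12 at 1.13 CPM, Rnu3a at 0.15 CPM, Snord118 at 0.32 CPM, Snord15b at 1.08 CPM, Snora74a at 0.96 CPM, Rpph1 at 1393.43 CPM and the ATP synthase subunit Atp5k at 2.63 CPM. Saline-water 9 was highest for Reg3g at 3093.17 CPM and B3galt5 at 201.72 CPM. It was lowest for Gkn2 at 3.55 CPM, Tff1 at 1.34 CPM and Ugt2b5 at 17.26 CPM. Single genes stood apart in 3 others: the clock gene Arntl was lowest in Saline-water 14 at 12.19 CPM, the junction protein Jup was lowest in Saline-water 11 at 215.17 CPM, and Scd1 was highest in Saline-water 10 at 29.92 CPM.

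The set difference itself differed between Leptin-water and Saline-water, by edgeR's interaction test, for Acsm3 (1.033 on the log2 scale), Cwh43 (2.988), Dhrs9 (1.624), Gldc (2.289), Krt7 (1.237), S100a6 (1.757) and Mab21l2 (−0.525). Outside the baseline, Saline-antibiotic 2 of set MT held liver transcripts at 41.1 CPM of Alb, 9.2 of Ahsg, 13.7 of Serpina3k and 9.6 of Mup3.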

How the results depend on the processing

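The Saline-water count of 1997 genes became 1084 with smooth muscle and exocrine pancreas scores as covariates, 243 (85 higher, 158 lower) when tested against a fold of 1.2, and, under alternatives chosen after seeing the data, 692 with a stomach and Brunner gland score as covariate, 830 with GC correction and 819 with GC correction without Saline-water 9 and 13. The cause was not tested. The remaining 12 alternatives, 2 of them chosen after seeing the data, gave 1789 to 2781 genes (DESeq2 2738), and leaving out 1 library gave 1394 to 2193. In Leptin-water the 2741 genes became 1215 with GC correction and 2009 to 2921 without 1 library. The 7 interaction genes became 75 with DESeq2, 5 with no filter or with RLE size factors, 0 with GC correction (1652 at an unadjusted p under 0.05) and 0 to 36 without 1 library. The number of lists whose called share exceeded that of all genes, 31, was 18 when tested against a fold of 1.2 and 25 to 32 without 1 library. The 15 most variable genes shared 12 to 15 with those found without 1 library, and the 20 highest by level remained the same 20. Signs reversed with the stomach and Brunner gland score for Anxa10 (0.817, adjusted p = 0.0373), Psapl1 (0.094) and Tff1 (0.282), and with GC correction without Saline-water 9 and 13 for Abcg2 (−0.002) and Psmc6 (−0.073). The median log2 fold change of all genes was 0.006 with TMM factors and 0.045 with library totals.

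No paired analysis was possible because sets M and MT share no replicate number within an injection. The interaction was also fitted with the replicate number of the titles as a block within each set, which called 0 genes (1724 at an unadjusted p under 0.05). Deviations of the 12 same-numbered pairs correlated at −0.31 to 0.284, and 3 Saline-water libraries correlated best with their own number. So few pairs cannot tell whether same-numbered libraries share more than a number. At 35410000 counts or more per library, low-count genes such as those of mesothelium limit the precision.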

Other observations

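Metabolic genes of the epithelium had these counts in the Saline-water and Leptin-water comparisons. Of 32 genes of PPAR-alpha and fatty acid oxidation, which burn dietary fat in enterocytes, none was called in Saline-water by edgeR or DESeq2 (4 had an unadjusted p under 0.05), while 14 were higher and none lower in set MT in Leptin-water, beside 8.58% of all genes, and 7 with GC correction. Of 51 genes of xenobiotic metabolism 2 were higher and 3 lower in Saline-water. These shares, 3.92% and 5.88%, were not above the 6.2% and 6.03% of all genes. In Leptin-water 13 were higher and 1 lower, beside 8.58% and 8.2% of all genes. With GC correction the counts were 1 and 1 in Saline-water and 7 and 2 in Leptin-water. Cyp3a11, a cytochrome P450 of drug and bile acid oxidation, was at 535 to 1656 CPM in set M and 631 to 2049 CPM in set MT under saline (log2 0.33 ± 0.28, adjusted p = 0.470), and its Leptin-water value was 0.75 (adjusted p = 0.00401). Of 31 proteasome genes 3 were higher in Saline-water (9.68%, near the 6.2% of all genes) and 11 in Leptin-water, and 1 and 6 with GC correction. Psmb6, a catalytic subunit, was 0.24 and 0.31 higher on the log2 scale (adjusted p = 0.0270 and 0.00065). Of 27 genes of cholesterol synthesis 1 was lower in Saline-water (3.7%, beside 6.03% of all genes), the sterol reductase gene Tm7sf2 (log2 −0.32, adjusted p = 0.0141). In Leptin-water 7 were higher and 1 lower (4 and none with GC correction). In none of these lists did the interaction test call a gene, so a difference between the injections was not shown.

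Trace metal and early response genes differed in part. Of 12 metallothionein and zinc genes 1 was higher and 4 lower in Saline-water, beside 6.2% and 6.03% of all genes, with none higher and 1 lower after GC correction. Mt2, a metallothionein, was at 13.1 to 54.8 CPM in set M and 7.25 to 25.7 CPM in set MT (log2 −1.01 ± 0.30, adjusted p = 0.0351, and 0.0879 with GC correction), and its value in Leptin-water was 0.01 (adjusted p = 0.990). Slc39a4, the main zinc importer of enterocytes, was at 167 to 222 and 128 to 198 CPM (log2 −0.36 ± 0.09, adjusted p = 0.0176; 0.127 with GC correction). Of 27 immediate early genes 1 was higher and 3 lower, and none and 1 with GC correction. Nr4a2, an inducible nuclear receptor, was at 9.12 to 17.2 and 5.64 to 9.31 CPM (log2 −0.61 ± 0.15, adjusted p = 0.0141), and kept its call with GC correction (adjusted p = 0.0263). Klf6, an inducible transcription factor, was at 142 to 202 and 168 to 345 CPM (log2 0.46 ± 0.12, adjusted p = 0.0231; 0.116 with GC correction). Tuft cells (15 genes), blood endothelium (15) and T cells with intraepithelial lymphocytes (19) had no called member with edgeR in Saline-water, with 1, 3 and 3 genes at an unadjusted p under 0.05.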
